A study of Mus musculus with 12 samples.

Results

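The genes described here encode the proteins of the cytosolic ribosome. They were taken as the protein-coding genes of the deposited count table whose symbol follows the Rpl, Rps or Rplp pattern, leaving out the Rps6k kinases and Rps19bp1. This rule found 85 genes among 40912 gene IDs, and 81 of them passed the filter on low counts, as did 15905 genes in all. The libraries came from spinal cord of mice at postnatal day 21 that carried either of 2 bacTRAP transgenes, Tg(Chat-EGFP/Rpl10a)DW167Htz or Tg(Snap25-EGFP/Rpl10a)JD362Jdd. All 4 groups therefore carried a fusion of EGFP to Rpl10a, which is itself among the 85 genes. Regulatory sequence of Chat, which marks cholinergic neurons, or of Snap25, which is active across neurons, drove the fusion. Ribosomes of the tagged cells were pulled down together with the RNA they held (TRAP_Chat and TRAP_Snap25), and RNA taken before the pulldown served as the input (PreIP_Chat and PreIP_Snap25), with 3 libraries per group. Whether the libraries of a group stem from separate animals is not stated in the labels, and p-values then describe only the spread between these samples, which may be technical.

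A ribosome joins a small (40S) and a large (60S) subunit, each built from ribosomal RNA and many proteins that are present in 1 copy, apart from the acidic stalk proteins, which recruit the translation factors. Most vertebrate messenger RNAs for ribosomal proteins begin with a C followed by a run of C and T, the 5′ TOP tract, through which mTOR signalling controls their own translation. Mammalian genomes also carry very many processed copies of these genes, most of them pseudogenes. Several members have a second, similar gene (a paralog, such as Rpl22l1 beside Rpl22). Some paralogs can take the place of the member in a ribosome, and membership here rests on the gene name alone.

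The start regions of the genes that the results turn on are shown to let the TOP tract be read. RefSeq lists a start for 64 of the 85 genes (build GRCm38.p6). Each window runs from 30 bases before the start to 20 bases after it, on the strand of the gene, and capitals mark the longest run of C and T that opens with C, is at least 5 bases long and begins no more than 10 bases before the start. The first set holds 3 genes whose listed first base is a C followed by at least 4 bases that are each C or T. Rpl15 encodes a core 60S protein, Rpl38 a 60S protein needed for the translation of Hox messenger RNAs, and Rps6 the 40S protein phosphorylated by the S6 kinases.
Rpl15 (chr14:18270967-18271016, minus strand): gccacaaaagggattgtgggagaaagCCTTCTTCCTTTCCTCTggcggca
Rpl38 (chr11:114668550-114668599, plus strand): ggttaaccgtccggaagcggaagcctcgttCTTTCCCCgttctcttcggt
Rps6 (chr4:86857348-86857397, minus strand): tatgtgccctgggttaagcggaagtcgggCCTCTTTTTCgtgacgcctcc
In the second set the listed first base does not open such a run. It holds Rpl27a, Rpl41 and Rpl36al, which had the firmest rises in the Chat pulldown, the paralogs Rpl22l1 and Rpl7l1, and both listed starts of Rpl10a.
Rpl27a (chr7:109519165-109519214, plus strand): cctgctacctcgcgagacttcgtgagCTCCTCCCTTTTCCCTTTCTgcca
Rpl41 (chr10:128549149-128549198, minus strand): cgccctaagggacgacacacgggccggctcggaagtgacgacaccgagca
Rpl36al (chr12:69184048-69184097, minus strand): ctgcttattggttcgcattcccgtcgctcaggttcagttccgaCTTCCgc
Rpl22l1 (chr3:28805478-28805527, plus strand): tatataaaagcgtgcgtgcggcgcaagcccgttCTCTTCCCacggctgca
Rpl7l1 (chr17:46782637-46782686, minus strand): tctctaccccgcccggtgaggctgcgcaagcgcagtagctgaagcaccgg
Rpl10a, start a (chr17:28328441-28328490, plus strand): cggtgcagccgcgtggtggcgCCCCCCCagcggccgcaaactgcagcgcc
Rpl10a, start b (chr17:28328535-28328584, plus strand): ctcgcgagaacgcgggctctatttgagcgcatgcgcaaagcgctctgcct
Under this definition 14 of 64 genes (21.9%) had a tract at the first base of a listed start, against 3.01% of 27025 symbols with a listed start, searched on the gene's strand only. The Rpl27a window shows how the count depends on the listed start, because a 20-base run of C and T begins 4 bases before it and the listed first base is a T. No match says only that these letters do not stand at that base. In the Chat pulldown 2 of the 14 genes with a tract rose (14.3%, against 12.6% of all tested genes), with a median log2 fold change of 0.44. Of the 46 tested genes without one 14 rose (30.4%), with a median of 0.57, and the difference between these sets was not tested.

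How much of each transcript is its own bears on every count that follows. Of 84 members with a transcript in GENCODE M21, the median had 38.3% of its 50-base stretches in no other annotated gene, with a range of 1.35% (Rps27) to 100% (Rpl3l and Rpl39l, among others). A shared stretch with at least 1 other gene was found in 81 of the 84, and 29 had no stretch of coding sequence to themselves. Rpl7a shared stretches with 123 other genes. The counted level followed this share in part, with a Spearman correlation of 0.42 across the 84 genes between the unique share and log2 of input CPM per kb of transcript, which is a description across genes counted in the same libraries. Median input counts were 899 for the 34 members with at least 50% unique stretches and 204 for the 50 below. Rps6, an abundant protein of every ribosome, had 7 to 22 counts per library, and Rpl24 had 1 to 8 counts and was not tested. The sources used here do not give the read length or the treatment of reads that match several genes. The order of levels between members is therefore not read as an order of expression, and changes of members that share most of their sequence are uncertain.

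**Figure D1:**
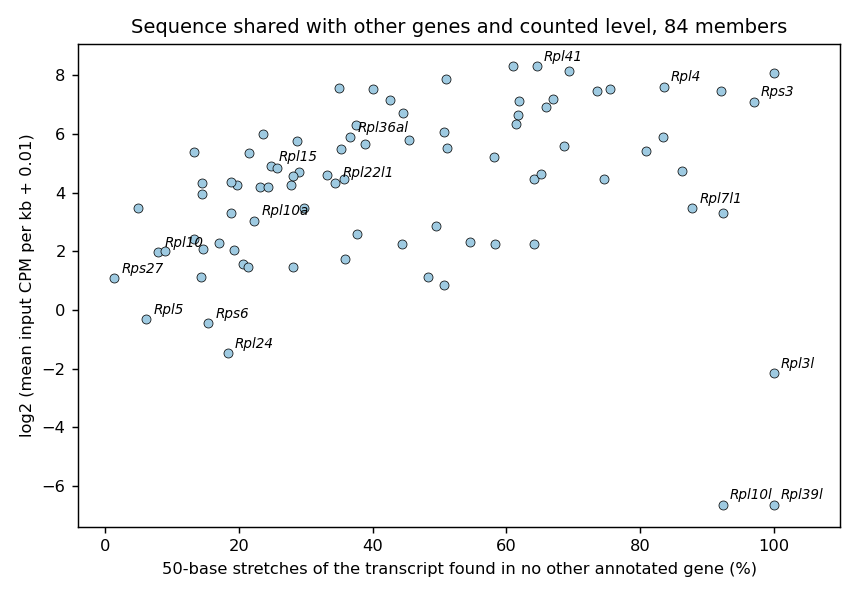
Unique share of each member's transcript (x axis, percent of 50-base stretches found in no other annotated gene) against its level in the 6 input libraries (y axis, log2 of mean CPM per kb with 0.01 added), 1 point per gene for 84 genes. Rps6, Rpl24, Rpl5 and Rps27 lie at the lower left, and the paralogs Rpl10l, Rpl39l and Rpl3l lie low at a high unique share.

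Total counts ran from 10149346 to 20521699 per library. In what follows CPM are counts scaled to a common library size by TMM. Members took 0.286% to 0.491% of counts in the inputs and 0.444% to 0.694% in the pulldowns. The same libraries differed in mitochondrial ribosomal RNA, which took 23.2% to 40.7% of the counts in the inputs and 0.209% to 6.67% in the pulldowns. With that RNA left out, members took 0.448% ± 0.0312 in PreIP_Chat, 0.589% ± 0.136 in TRAP_Chat, 0.546% ± 0.177 in PreIP_Snap25 and 0.543% ± 0.0898 in TRAP_Snap25 (SD, n = 3). The groups overlapped on this scale in the Snap25 line. They did not overlap in the Chat line, where the inputs reached 0.484% and the pulldowns began at 0.494%. The input library PreIP_Snap25 replicate 3 stood apart, with 0.733% against 0.382% and 0.523% in its replicates. In that library 85.2% of the tested members had their highest CPM of the group, against 34.6% of all tested genes. TRAP_Chat replicate 1 was the highest library of its group for 58.0% of members, against 35.7% of all tested genes, and also held the most oligodendrocyte marker RNA and mitochondrial ribosomal RNA of its group.

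**Figure D2:**
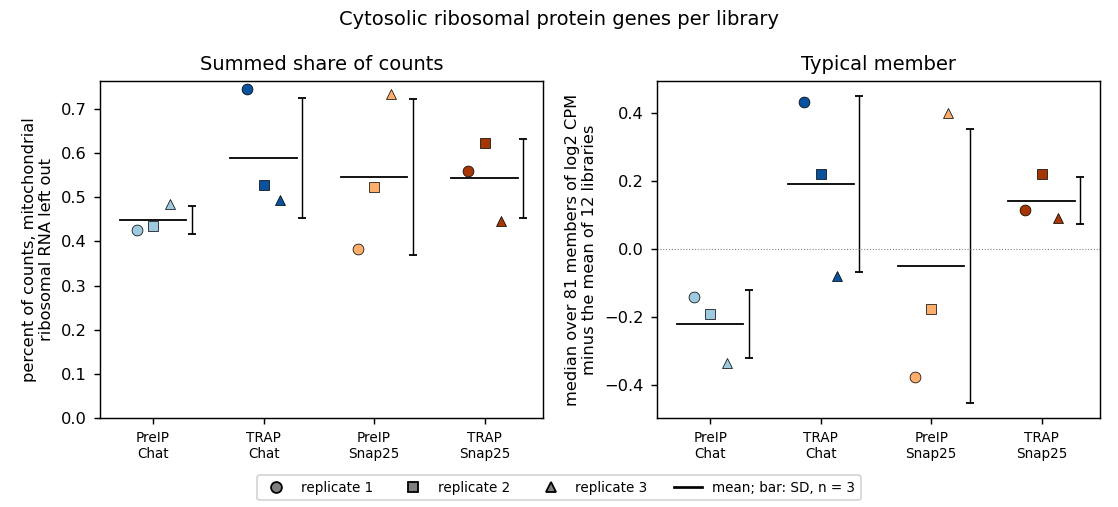
Members in each of the 12 libraries, as their summed share of counts with mitochondrial ribosomal RNA left out (left, percent) and as the median over 81 members of log2 CPM minus each gene's mean over the 12 libraries (right). Symbols are replicates, lines are group means and bars are SD, and PreIP_Snap25 replicate 3 lies at 0.40 on the right where its replicates lie at -0.38 and -0.18.

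Other cell types moved with the pulldowns. In TRAP_Chat against PreIP_Chat all 6 motor neuron markers rose and 1 of 6 general neuron markers did, all 7 oligodendrocyte and all 6 astrocyte markers fell, and 6 of 7 microglial markers fell. The summed oligodendrocyte markers, which include Mbp, lay at 15143 to 20125 CPM in PreIP_Chat and 1805 to 5105 CPM in TRAP_Chat. In the Snap25 line they lay at 14755 to 18829 CPM in the input and 1411 to 4265 CPM in the pulldown, and 1 of 6 general neuron markers rose. Of the defining markers, Trem2 of microglia was at 0 in 2 libraries of each pulldown, Tmem119 of microglia in 1 library of TRAP_Snap25, and Tek of vessels in 1 library of TRAP_Chat and 2 of TRAP_Snap25. Their part in the results below was not tested, and in bulk RNA fewer cells of a type and less RNA per cell cannot be told apart.

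Rpl10a, the tagged 60S protein, fell in the Chat pulldown. It had 9.59, 7.14 and 9.26 CPM in PreIP_Chat and 2.72, 5.52 and 2.92 CPM in TRAP_Chat, so the groups did not overlap. The difference was 2.34-fold, or -1.22 ± 0.44 on the log2 scale (SE, 3 libraries a group, edgeR adjusted p = 0.0475). It had 6.10, 4.14 and 8.80 CPM in PreIP_Snap25 and 5.14, 4.13 and 7.93 CPM in TRAP_Snap25, a log2 difference of -0.15 ± 0.43 with edgeR adjusted p = 0.838, and these groups overlapped. The difference between the lines in this change was -1.07 ± 0.61 (SE, edgeR adjusted p = 0.554). These values rest on 44 to 175 counts per library. The call in the Chat line was not held without PreIP_Chat replicate 1, 2 or 3, TRAP_Chat replicate 1 or 3, or PreIP_Snap25 replicate 1 or 3, with edgeR adjusted p from 0.0270 to 0.127 over the 12 fits that left out 1 library, nor without a scaling factor or without the filter on low counts. Of the transcript 22.3% of stretches were unique, and 0 of its 602 stretches of coding sequence were, since each occurs in at least 1 of 6 other annotated genes. Counts of the endogenous gene and of the tagged coding sequence cannot be told apart where a read lies in the coding sequence alone.

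More ribosomal protein genes rose than fell in the Chat pulldown. Of 81 tested members 18 (22.2%) rose and 1 fell, where 12.6% of all tested genes rose and 14.3% fell. The median log2 fold change of members was 0.51, with 61 above 0 and 20 below, against -0.06 over all tested genes. For 34 members every TRAP_Chat library lay above every PreIP_Chat library (21.8% of all tested genes), and for 7 every library lay below (26.1% of all tested genes). At an unadjusted edgeR p under 0.05 there were 27 higher members (18.2% of all tested genes) and 1 lower (20.8%). The comparison asks which RNAs ribosomes of the cholinergic cells held more or less than the whole cord, and edgeR's quasi-likelihood test with Benjamini-Hochberg adjustment over all tested genes was used for each call. Members have short transcripts, with a median exon length of 1770 bases against 4209 for tested genes, and genes with short transcripts had higher fold changes over the whole table. In the shortest of 4 equal bins of tested genes the median was 0.29, and among the 57 members in it 0.50. With the trend of fold change on length removed, 13 members (16.0%) rose against 15.8% of all tested genes, and the member median was 0.31 against 0.07. Without a scaling factor 27 members (33.3%) rose and 0 fell, where 16.6% of all tested genes rose, and the median of all tested genes was then 0.17 and that of members 0.75.

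The 3 largest rises were of 60S genes. Rpl27a, a 60S protein, had 29.3, 18.8 and 28.6 CPM in PreIP_Chat and 131, 67.7 and 79.0 CPM in TRAP_Chat. It rose 3.62-fold, or 1.86 ± 0.32 on the log2 scale (SE, edgeR adjusted p = 0.00064). No stretch of its coding sequence is unique, and it shares an annotated overlap with Snora3 on the same strand. Rpl41, among the shortest proteins known, had 166, 165 and 163 CPM in the input and 694, 626 and 306 CPM in the pulldown. It rose 3.29-fold (1.72 ± 0.33, edgeR adjusted p = 0.00161), and the third pulldown library lay well below the other two while still above all inputs. Rpl36al, the paralog of the X-linked Rpl36a, had 32.1, 29.0 and 29.9 CPM in the input and 85.7, 97.6 and 65.0 CPM in the pulldown. Its rise was 2.73-fold (1.45 ± 0.23, edgeR adjusted p = 0.000442), although it shares an annotated overlap of 332 bases with another gene on the same strand. These 3 rises were the only calls of the 19 in this comparison that passed in each of the 12 fits that left out 1 library. Each other call was lost in at least 1 of them.

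Apart from these, 10 further 60S genes and 5 40S genes rose. Rpl22l1, the paralog of Rpl22, had 12.1, 10.5 and 10.3 CPM in PreIP_Chat and 40.05, 23.6 and 22.3 CPM in TRAP_Chat, a 2.61-fold rise (edgeR adjusted p = 0.0170). Rps27l, the p53-responsive paralog of Rps27, had 14.4, 11.0 and 15.8 CPM in the input and 43.2, 36.3 and 26.5 CPM in the pulldown, a 2.57-fold rise (edgeR adjusted p = 0.0209). Rpl39, which lines the exit tunnel of the ribosome, had 31.1, 28.8 and 31.9 CPM and then 98.6, 80.5 and 36.4 CPM, a 2.35-fold rise (edgeR adjusted p = 0.0263). In all 3 genes each pulldown library lay above each input library. The other 60S genes were Rpl15, Rpl23, Rpl34, Rpl26, Rpl38, Rpl37, Rpl22 and Rpl29, which rose 1.85-fold (Rpl22 and Rpl29) to 2.14-fold (Rpl15). The other 40S genes were Rps25, Rps24, Rps26 and Rps20, which rose 1.74-fold (Rps20) to 1.92-fold (Rps25). Rps27l, Rpl29, Rpl38 and Rpl39 did not pass once the length trend was removed, with edgeR adjusted p from 0.0528 to 0.0740, nor did Rpl26 (edgeR adjusted p = 0.112), which also missed the threshold with limma voom. Of the 12 fits that left out 1 library, Rps20 passed in 5 and Rpl26 in 3, and neither passed without PreIP_Chat replicate 1, 2 or 3, TRAP_Chat replicate 1 or 2, or PreIP_Snap25 replicate 1 or 2. Rpl26 was also lost without PreIP_Snap25 replicate 3 or TRAP_Snap25 replicate 1.

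**Figure D3:**
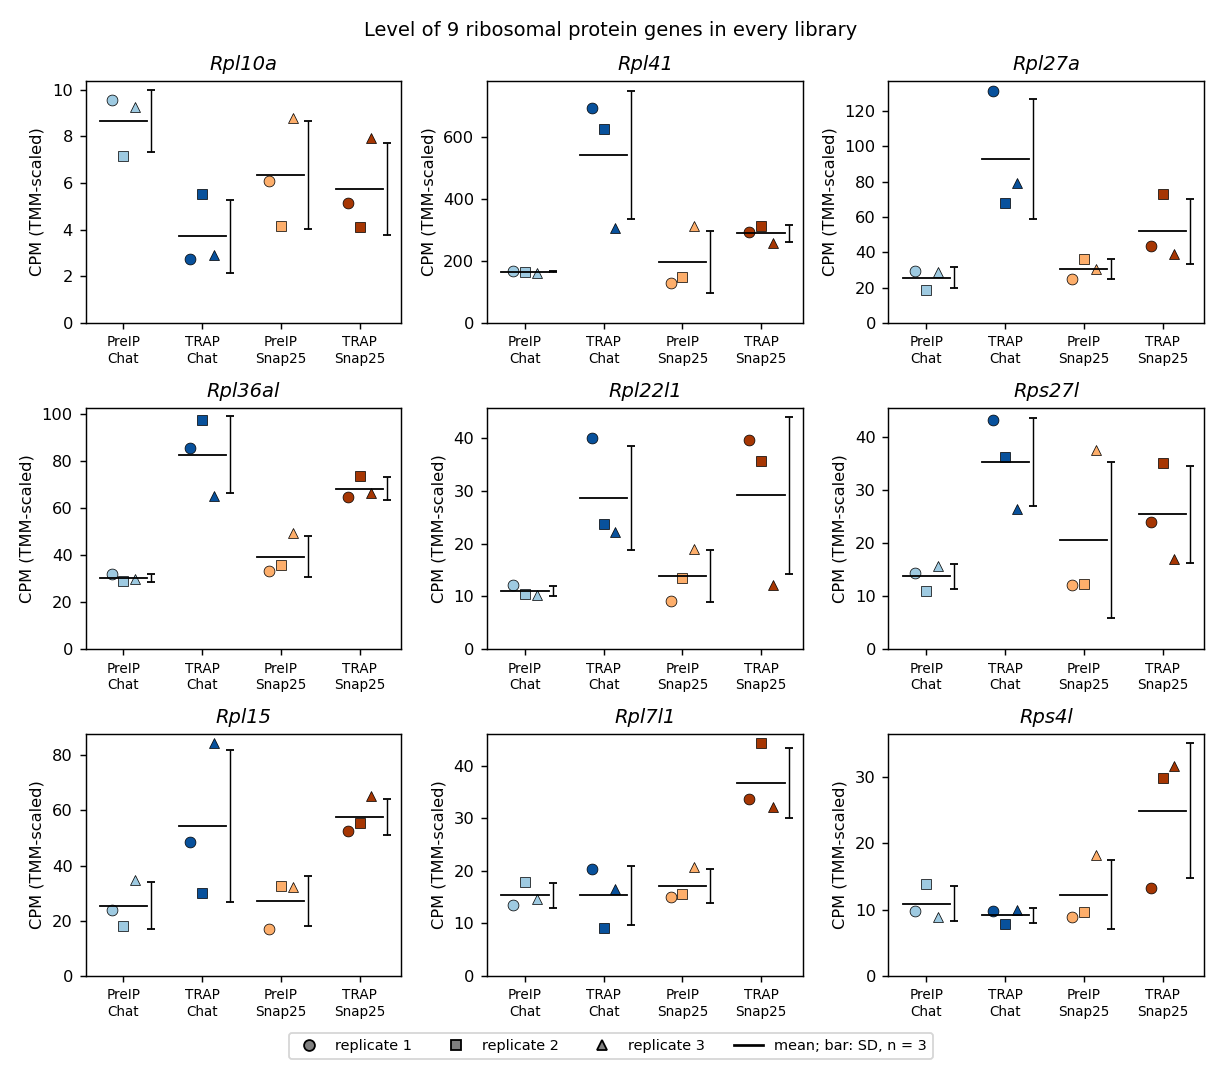
CPM (TMM-scaled) of 9 members in each library, with the scale of each panel starting at 0, where symbols are replicates, lines are group means and bars are SD (n = 3). Rpl41, Rpl27a, Rpl36al, Rpl22l1 and Rps27l lie higher in all TRAP_Chat libraries than in all PreIP_Chat libraries, Rpl10a lies lower, and Rpl7l1 lies highest in TRAP_Snap25.

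By subunit, 13 of 45 tested 60S genes without the stalk rose (28.9%) and 1 fell (2.22%), with a median of 0.59. Of 33 40S genes 5 rose (15.2%) and 0 fell, with a median of 0.37. Among all tested genes 12.6% rose and 14.3% fell, so the 40S share of rises lay near that of all tested genes. None of the 3 stalk genes passed. Rplp0, their anchor, had a log2 fold change of -0.09, and Rplp1 and Rplp2 had 0.16 and 0.25. Whether the subunits differ from each other was not tested. Among the 9 genes of the list linked to Diamond-Blackfan anaemia, an inherited failure of red cell production, Rps24 (1.88-fold) and Rps26 (1.82-fold) rose. That is 22.2% of the list, the same share as among all 81 tested members (22.2%), against 12.6% of all tested genes. The list median was 0.65, against 0.51 for all tested members. Rpl11 and Rpl5, which bind Mdm2 as part of the 5S particle, had log2 fold changes of 0.87 (edgeR adjusted p = 0.101) and 0.71 (edgeR adjusted p = 0.448). Of the same list, Rps19, Rpl35a, Rps10 and Rps7 lay between -0.12 and 0.65.

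The lowest values after Rpl10a belonged to Rps16, Rps14 and Rpl28, none of which passed. Rps14, a 40S protein, had 92.2, 95.8 and 80.1 CPM in PreIP_Chat and 40.1, 78.2 and 34.5 CPM in TRAP_Chat (-0.81 ± 0.39 on the log2 scale, SE, edgeR adjusted p = 0.133). It had 74.97, 58.5 and 157 CPM in PreIP_Snap25 and 65.0, 28.6 and 67.5 CPM in TRAP_Snap25 (-0.85 ± 0.39, edgeR adjusted p = 0.130). The groups did not overlap in the Chat line and overlapped in the Snap25 line. In the Chat line Rps14 passed without TRAP_Chat replicate 2 (edgeR adjusted p = 0.0483), without the filter on low counts and in a fit of the groups compared alone, and in the Snap25 line it passed without that filter. Rps16 and Rpl28 had log2 fold changes of -0.96 and -0.75 in the Chat line at edgeR adjusted p = 0.260 and 0.329.

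Members were also split by how much of their transcript is their own. Of the 31 tested members with at least 50% unique stretches 11 (35.5%) rose and 0 fell in the Chat pulldown, with a median of 0.62. Of the 49 below that share 7 (14.3%) rose and 1 (2.04%) fell, with a median of 0.37. Among all tested genes 12.6% rose and 14.3% fell, so the share of rises in the second set lay near that of all tested genes. Counts were also lower in the second set, as given above, and the difference between the sets was not tested. Rpl27a and Rpl41, with 64.1% and 64.6% unique stretches, stand in the first set. The unique stretches of Rpl27a all reach outside its coding sequence, so reads within that sequence alone may stem from other genes. Rpl36al (36.7%), Rpl15 (24.8%) and Rpl10a stand in the second, and they too have no unique stretch of coding sequence.

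In the Snap25 pulldown few members changed. Of the 81 tested, 3 (3.70%) rose and 1 fell, where 9.69% of all tested genes rose and 12.7% fell. The member median was 0.19 against -0.00 over all tested genes, with 50 members above 0 and 31 below. For 7 members all pulldown libraries lay above all inputs (16.6% of all tested genes) and for 5 all lay below (21.4% of all tested genes). At an unadjusted edgeR p under 0.05 there were 10 higher (16.2% of all tested genes) and 3 lower (19.1%). Without a scaling factor 13 members (16.0%) rose and 1 fell, where 20.7% of all tested genes rose, and the median of all tested genes was 0.38 and that of members 0.58. With the length trend removed 2 (2.47%) rose and 1 fell, where 14.0% of all tested genes rose. The member median was then 0.11 against 0.15.

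The 3 genes that rose were Rpl7l1, Rpl15 and Rpl36al. Rpl7l1, the paralog of Rpl7, had 14.9, 15.5 and 20.8 CPM in PreIP_Snap25 and 33.6, 44.3 and 32.0 CPM in TRAP_Snap25, a 2.15-fold rise (1.10 ± 0.31 on the log2 scale, SE, edgeR adjusted p = 0.0167). Rpl15 had 16.8, 32.6 and 32.3 CPM and then 52.6, 55.5 and 65.1 CPM, a 2.12-fold rise (1.09 ± 0.36, edgeR adjusted p = 0.0388). Rpl36al had 33.1, 35.7 and 49.3 CPM and then 64.9, 73.8 and 66.3 CPM, a 1.74-fold rise (0.80 ± 0.23, edgeR adjusted p = 0.0213). The groups did not overlap in any of the 3, and Rpl15 and Rpl36al are the 2 members that rose in both pulldowns. In the Chat line Rpl15 had 23.7, 17.9 and 34.9 CPM in the input and 48.7, 30.1 and 84.4 CPM in the pulldown, so its libraries overlapped there. Rpl7l1 and Rpl36al did not pass without PreIP_Snap25 replicate 1, PreIP_Snap25 replicate 2 or TRAP_Snap25 replicate 2. Rpl15 did not pass without any 1 of the 6 libraries of the line or without PreIP_Chat replicate 1, and Rpl36al did not pass with the length trend removed or in a fit of the groups compared alone.

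Rpl10, the 60S protein whose addition completes the subunit, fell in the Snap25 pulldown. It had 57, 77 and 51 counts in PreIP_Snap25 and 17, 5 and 11 counts in TRAP_Snap25, which is 3.13, 4.99 and 3.32 CPM against 1.25, 0.279 and 1.12 CPM. The difference was 4.38-fold, or -2.13 ± 0.62 on the log2 scale (SE, edgeR adjusted p = 0.0213). In the Chat line it had 3.91, 2.93 and 2.70 CPM in the input and 2.41, 1.36 and 2.34 CPM in the pulldown (-0.64 ± 0.58, SE, edgeR adjusted p = 0.445). The groups did not overlap in either line, at counts that are low throughout. Only 7.87% of its stretches are unique, and it shares others with 15 genes. The call was lost without PreIP_Snap25 replicate 2 or TRAP_Snap25 replicate 2 (edgeR adjusted p up to 0.0876) and in a fit of the groups compared alone (edgeR adjusted p = 0.0529). Rpl9 and Rps27 had the next lowest values, -1.64 and -1.05 on the log2 scale, and neither passed (edgeR adjusted p = 0.122 and 0.430).

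**Figure D4:**
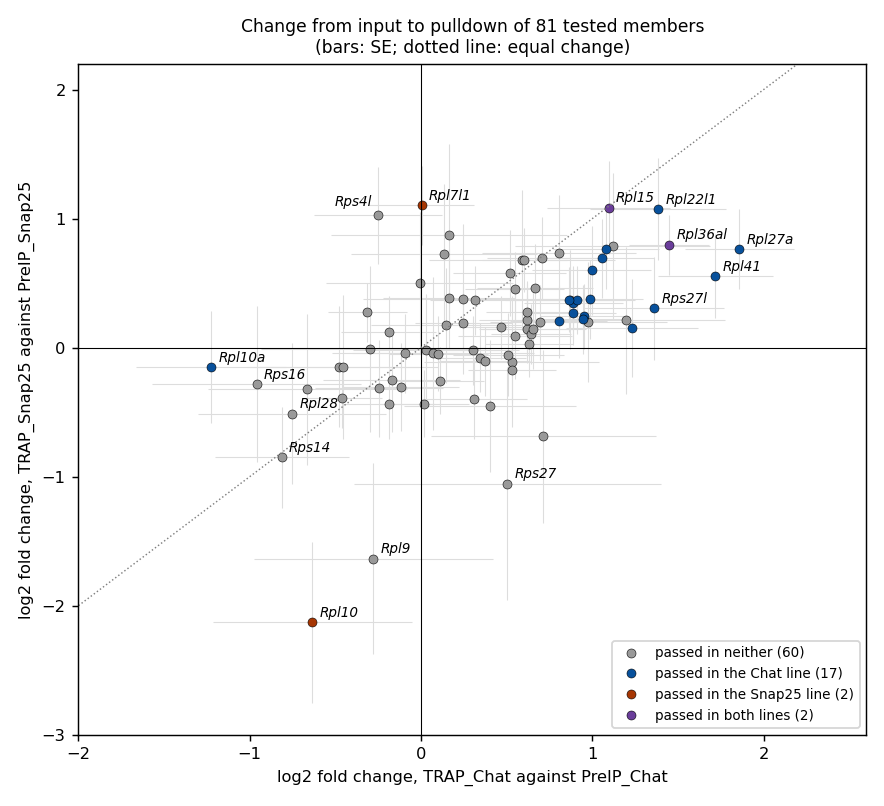
Log2 fold change from input to pulldown in the Chat line (x axis) and in the Snap25 line (y axis) for the 81 tested members, with SE bars and colours for the line in which a member passed. The changes use separate libraries in each line, 46 members lie above 0 in both, 58 lie below the dotted line of equal change, and Rpl36al and Rpl15 are the 2 that passed in both.

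The number of members that rose in the Snap25 pulldown depended on the input library that stood apart. That library was singled out because members were high in it. A larger member change without it follows from that choice, here and below, and is no separate evidence of a rise. Without PreIP_Snap25 replicate 3, 9 members (11.0%) rose and 1 fell in the Snap25 pulldown, where 8.18% of all tested genes rose, and the member median was 0.46. They included Rpl36al, Rpl7l1, Rps27l, Rpl22l1, Rpl34, Rps4l, Rpl23 and Rpl41, and 6 of the 9 also rose in the Chat line with all libraries. Rpl41 had 130, 149 and 312 CPM in PreIP_Snap25 and 294, 314 and 259 CPM in TRAP_Snap25. With all libraries its log2 fold change was 0.55 ± 0.33 and did not pass (SE, edgeR adjusted p = 0.241). Without that input it was 1.04 ± 0.31 and passed (SE, edgeR adjusted p = 0.0282). No member rose without PreIP_Snap25 replicate 1, PreIP_Snap25 replicate 2 or TRAP_Snap25 replicate 2, where 4.48%, 4.10% and 5.74% of all tested genes rose. Without TRAP_Snap25 replicate 1 there were 3 that rose (3.66%, against 7.90% of all tested genes), and without TRAP_Snap25 replicate 3 there were 5 (6.10%, against 10.2%). Without PreIP_Snap25 replicate 1 the member median was -0.03.

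In the Chat line the member median stayed above 0 in each fit that left out 1 library, while the number of calls varied. Without PreIP_Chat replicate 1, 2 or 3 there were 9, 4 and 6 members that rose, which is 11.0%, 4.94% and 7.32% of those tested, against 7.97%, 7.23% and 7.99% of all tested genes. Without TRAP_Chat replicate 1, 2 or 3 there were 5, 15 and 20, which is 6.10%, 18.3% and 24.4%, against 10.4%, 10.7% and 10.2% of all tested genes. The share of members that rose was thus below that of all tested genes without PreIP_Chat replicate 2, PreIP_Chat replicate 3 or TRAP_Chat replicate 1. The member median was lowest without TRAP_Chat replicate 1, at 0.32, and highest without TRAP_Chat replicate 3, at 0.55.

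**Figure D5:**
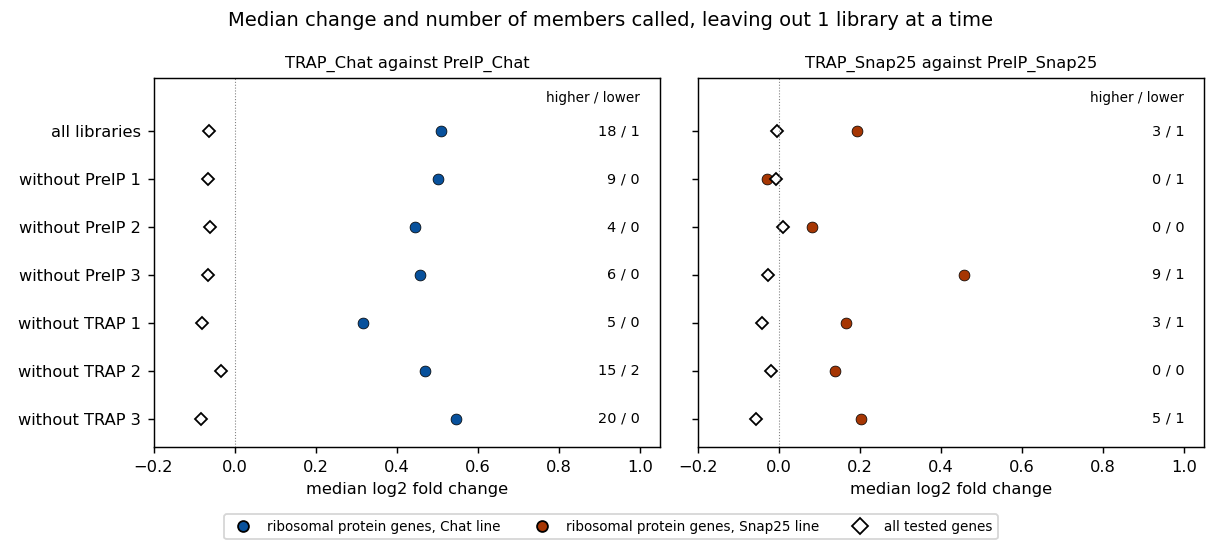
Median log2 fold change of the members (circles) and of all tested genes (diamonds) with all libraries and without each library of the line, for the Chat line (left) and the Snap25 line (right), with the number of members that rose and fell at the right edge of each panel. The Chat median stays between 0.32 and 0.55, and the Snap25 median runs from -0.03 to 0.46.

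Whether the change from input to pulldown differed between the lines was tested directly. Of 81 members 0 passed in either direction, where 0.604% and 0.440% of all tested genes did. At an unadjusted edgeR p under 0.05 there were 2 higher (6.09% of all tested genes) and 2 lower members (5.44%). The median difference was 0.32 in favour of the Chat line, against 0.03 over all tested genes, and 0.04 without PreIP_Snap25 replicate 3. Its 4 largest values belonged to Rps27 (1.56), Rpl10 (1.49), Rpl5 (1.40) and Rpl9 (1.36), members of low count, with edgeR adjusted p from 0.540 to 0.724. The lowest belonged to Rps4l (-1.27), Rpl7l1 (-1.10), Rpl10a (-1.07) and Rps6 (-0.71). Over the 12 fits that left out 1 library, the value of Rpl9 ran from -0.16 to 1.82.

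Between the inputs 0 members passed, as did 0.00% of all tested genes. At an unadjusted edgeR p under 0.05 there were 0 higher (0.258% of all tested genes) and 3 lower members (0.578%). For 0 members all PreIP_Chat libraries lay above all PreIP_Snap25 libraries (4.19% of all tested genes), and for 6 all lay below (3.85%). The median was -0.16, with 61 of 81 members lower in PreIP_Chat, and 0.05 without PreIP_Snap25 replicate 3. Rps27 (-1.01), Rpl39 (-0.74), Rpl35 (-0.67) and Rps25 (-0.60) had the lowest values, and Rps6 (0.50), Rpl10a (0.45), Rps12 (0.42) and Rpl27 (0.24) the highest.

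The pulldowns of the lines, which set cholinergic neurons against neurons in general, differed in 2 members. None was higher in TRAP_Chat, where 3.97% of all tested genes were, and 2 (2.47%) were lower, where 2.77% of all tested genes were. The share of lower members thus lay near that of all tested genes. Both lower members are paralogs. Rpl7l1 had 20.3, 9.14 and 16.5 CPM in TRAP_Chat against 33.6, 44.3 and 32.0 CPM in TRAP_Snap25, 2.39-fold lower (-1.26 ± 0.31 on the log2 scale, SE, edgeR adjusted p = 0.0199). Rps4l, a copy of the X-linked Rps4x, had 9.70, 7.78 and 9.89 CPM against 13.2, 29.9 and 31.6 CPM, 2.73-fold lower (-1.45 ± 0.38, edgeR adjusted p = 0.0285). The libraries did not overlap in either gene. For 4 members all TRAP_Chat libraries lay above (10.3% of all tested genes) and for 4 below (9.47%), and at an unadjusted edgeR p under 0.05 there were 4 higher (11.8%) and 3 lower (9.90%). The deposited table calls Rps4l protein-coding and GENCODE M21 calls it a transcribed processed pseudogene, so its own sequence share was not measured. Rpl7l1 had 87.8% unique stretches and no overlapping gene. Neither call was held in a fit of the pulldowns alone (edgeR adjusted p = 0.0830 and 0.0751). Rpl7l1 was lost without TRAP_Snap25 replicate 2 or TRAP_Chat replicate 2 (edgeR adjusted p up to 0.0800), and Rps4l was lost without TRAP_Snap25 replicate 2 or 3 or any TRAP_Chat library (up to 0.0968).

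Among members that did not pass between the pulldowns, Rpl9 (2.81-fold), Rpl10 (2.35-fold), Rpl5 (2.28-fold) and Rpl12 (1.88-fold) had the highest values in TRAP_Chat, and Rps15a and Rps23 had the lowest after the paralogs, at -0.68 and -0.63 on the log2 scale. The edgeR adjusted p of these 6 lay between 0.0939 and 0.551. The value of Rpl9 rested mainly on 1 library, with 7.85, 1.51 and 0.885 CPM in TRAP_Chat and 0.882, 1.34 and 1.42 CPM in TRAP_Snap25. Its log2 fold change ran from -0.03 to 1.95 over the 12 fits that left out 1 library. The median over all members was 0.06, against 0.01 over all tested genes, and it was -0.04 without TRAP_Chat replicate 1 and 0.22 without TRAP_Chat replicate 3.

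Paralogs and their parents were described as lists. Of 8 paralogs 5 were tested, of which 3 rose in the Chat pulldown (Rpl36al, Rpl22l1 and Rps27l), where 12.6% of all tested genes rose. In the Snap25 pulldown 2 rose (Rpl36al and Rpl7l1), where 9.69% of all tested genes rose. Of their 8 parents, Rpl22 and Rpl39 rose in the Chat pulldown. Rpl10 fell in the Snap25 pulldown, where 12.7% of all tested genes fell. Whether such short lists differ from other genes was not tested. Rpl22l1 had 9.12, 13.6 and 19.0 CPM in PreIP_Snap25 and 39.7, 35.7 and 12.2 CPM in TRAP_Snap25 (1.07 ± 0.40 on the log2 scale, SE, edgeR adjusted p = 0.0608), so the third pulldown library lay among the inputs. Rpl36a, the parent of Rpl36al, had log2 fold changes of 0.52 and 0.58 in the Chat and Snap25 lines (edgeR adjusted p = 0.264 and 0.227). Rpl3, Rpl7 and Rps4x lay between -0.44 and 0.46 in both lines. The untested paralogs were near or at 0: Rpl10l, best known from testis, had 0 counts in all 12 libraries, which allows up to 3 counts or 0.146 to 0.296 CPM per library over total counts. Rpl39l, also a testis gene, had 4 counts, all in TRAP_Snap25 replicate 3, and Rpl3l, a gene of heart and skeletal muscle, had 0 to 15 counts per library. Such limits cover counting error only.

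Genes of ribosomal proteins that carry other names were looked at beside the members. Fau, Rpsa and Rack1 (Gnb2l1 in the table) encode 40S proteins, Fau as a fusion, and none of these 3 passed in any of the 5 comparisons. Their log2 fold changes lay between -0.36 and 1.02 in the Chat line and between -0.11 and 0.63 in the Snap25 line.

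Genes for proteins of the mitochondrial ribosome, whose messenger RNAs are also read by cytosolic ribosomes, were counted beside the members. Of 74 tested, 45 rose in the Chat pulldown (60.8%, against 12.6% of all tested genes) and 48 in the Snap25 pulldown (64.9%, against 9.69%). None fell in either, 29 and 26 did not pass, and the medians were 0.93 and 0.90. Of 41 factors of ribosome assembly 5 rose (12.2%, against 12.6% of all tested genes) and 0 fell in the Chat pulldown, and 3 rose (7.32%, against 9.69%) and 2 fell (4.88%, against 12.7%) in the Snap25 pulldown. These shares of rises lie near or below those of all tested genes. Nop10 and Nhp2, proteins of the particles that make pseudouridine in ribosomal RNA, rose 3.66-fold and 3.02-fold in the Chat pulldown. In the Snap25 pulldown Nop10 rose 3.09-fold and Mrto4, a 60S assembly factor, 1.95-fold. Polr1a, a subunit of RNA polymerase I, and Ncl, nucleolin, fell 1.84-fold and 1.73-fold there.

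Other messenger RNAs known to begin with a TOP tract were set beside them. Of 13 tested, 3 rose (23.1%, against 12.6% of all tested genes) and 1 fell (7.69%, against 14.3%) in the Chat pulldown. In the Snap25 pulldown 0 rose (against 9.69% of all tested genes) and 1 fell (7.69%, against 12.7%). Nap1l1, a histone chaperone, rose 2.13-fold and Eef1b2, an elongation factor subunit, 2.10-fold in the Chat pulldown. Pabpc1, the cytoplasmic poly(A)-binding protein, fell 1.81-fold in the Chat pulldown and 2.57-fold in the Snap25 pulldown. The medians of this list were 0.14 and 0.01, against 0.51 and 0.19 for the ribosomal protein genes.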

How the data were processed

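Raw counts of reads per gene for 12 libraries were deposited in 1 table. Per the submitters' processing notes STAR and HTSeq were used. Their versions, the genome build, annotation, read length and strandedness are stated in none of the sources used here (not given). Libraries were amplified with the Nugen Ovation V2 kit, per the labels' protocols. The table has 41736 lines for 40912 gene IDs, and 824 exact repeats were dropped. edgeR 4.0.16 in R 4.3.3 was run with filterByExpr, TMM scaling, 1 mean per group over all 12 libraries and the quasi-likelihood test, with Benjamini-Hochberg adjustment over 15905 tested genes at 0.05 in 5 comparisons. CPM are TMM-scaled and p-values are two-sided. The pipeline was tested on simulated data. Alternatives were RLE scaling, total counts, DESeq2 1.42.0, limma 3.58.1 voom, no filter, only the groups compared, a replicate block, removal of the length trend and leaving out each library. Looking at members with at least 50% unique stretches was added after seeing the data. Members and lists were chosen with earlier results of these data known. Genes named are Rpl10a, the other-named ribosomal proteins, the paralogs and parents, the stalk, the Diamond-Blackfan list and the 4 highest and 4 lowest members per comparison, with up to 2 genes per direction from the assembly and TOP lists. The remaining names were chosen after their values were seen. Some genes under this rule are not reported here. Unique stretches and overlaps were read from GENCODE M21, start regions from RefSeq. Opposite-strand genes cannot be told apart while the strand setting is unknown, which touches Rpl10a, Rpl15, Rpl22l1 and Rps25 among the called genes.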

Additional observations from a re-analysis of the deposited data

Results flagged for a closer look

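Reads counted to pseudogenes named after ribosomal proteins were outside the comparisons above. The table holds 220 such genes, of which 29 passed the filter. Their mean share of counts was 0.00767% in TRAP_Chat (0.00542% to 0.0102%) and 0.00857% in TRAP_Snap25 (0.00638% to 0.0110%), above 0.00417% in PreIP_Chat (0.00398% to 0.00427%) and 0.00511% in PreIP_Snap25 (0.00445% to 0.00573%). Each pulldown library lay above the inputs of its line, which is what drew attention to them. These are shares of all counts, mitochondrial ribosomal RNA included. That RNA took 23.2% to 40.7% of counts in the inputs and 0.209% to 6.67% in the pulldowns. Pseudogene shares with that RNA left out were not computed, so the rise in share is not read as a rise of pseudogene RNA. Per 100 counts of the ribosomal protein genes themselves, pseudogenes held 1.15 to 1.35 counts in PreIP_Chat, 1.10 to 1.47 in TRAP_Chat, 1.17 to 1.66 in PreIP_Snap25 and 1.44 to 1.76 in TRAP_Snap25, and these ranges overlap within each line. Of the 29 tested, 1 rose in the Chat pulldown by edgeR (3.45%, against 12.6% of all tested genes) and 0 fell (against 14.3%). In the Snap25 pulldown 1 fell (3.45%, against 12.7%) and 0 rose (against 9.69%). Their median log2 fold changes were 0.68 and 0.37, against 0.51 and 0.19 for the ribosomal protein genes.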

How the results depend on the processing

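Of 3348 values for single genes under alternatives, 3105 kept their direction and side of the threshold, 160 uncalled values changed sign, 60 lost and 23 gained a call, and 0 called values changed sign. In TRAP_Chat against PreIP_Chat 0 of 81 members fell with total counts, where 1580 of 15905 tested genes fell. In a fit of the groups compared 2 fell (2463 of 14905 tested genes), and 2 with a replicate block (2445 of 15905). The median was 0.75 with total counts and 0.31 with the length trend removed. In TRAP_Snap25 against PreIP_Snap25 the number that rose was 13 with total counts (16.0%, against 20.7% of all tested genes) and 5 with DESeq2 (5.95%, against 6.83%). It was 5 with limma voom (6.17%, against 10.4%), 5 without the filter (5.95%, against 5.23%) and 6 with a replicate block (7.41%, against 9.71%). Without the filter 2 fell, where 2472 of 26577 tested genes fell. In a fit of the groups compared 0 fell (1472 of 14673 tested genes), and 2 with a replicate block (2119 of 15905). The median was 0.58 with total counts. In TRAP_Chat against TRAP_Snap25 1 member rose without the filter (1.19%, against 4.08% of all tested genes). In a fit of the pulldowns alone 0 fell, where 145 of 14111 tested genes fell. The cause was not tested.

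Leaving out 1 library at a time, with 16455 to 16578 genes tested, 4 to 20 members rose and 0 to 2 fell in the Chat line. Of all tested genes 7.23% to 14.3% rose there and 1547 to 2769 fell. In the Snap25 line 0 to 9 members rose and 0 to 2 fell, where 4.10% to 10.2% of all tested genes rose and 1298 to 2321 fell. Between the pulldowns 0 to 1 rose and 0 to 2 fell, where 2.14% to 5.80% of all tested genes rose and 266 to 574 fell. The medians ran from 0.32 to 0.55, from -0.03 to 0.46 and, for the difference between the lines, from 0.0396 to 0.45 (0.0396 without PreIP_Snap25 replicate 3), between the inputs from -0.35 to 0.05, and between the pulldowns from -0.04 to 0.22. Same-numbered input and pulldown libraries of a line share a suffix in the labels whose meaning is not stated. They deviated together weakly (r = 0.06, 0.10 and 0.13 in the Chat line, -0.04, 0.17 and 0.15 in the Snap25 line), and each Chat library correlated best with its own number. Since 1 correlation in each line was under 0.1, the numbers were not taken as pairs in the main fit. Such low values do not show that the libraries are unpaired. With the replicate block 17 members rose in the Chat line (21.0%, against 12.5% of all tested genes). Rps20 and Rpl26 did not pass there, and Rps14 fell in both lines. Members of low count, such as Rpl10, Rpl9, Rps6 and Rps27, limit what can be detected.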
